A study of Mus musculus with 6 samples.

Results

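Icmt, the gene of the enzyme that methylates prenylated proteins, was expressed at 47.6% of the control level in cerebellum of mice with a Purkinje cell-driven STING mutant. None of the other 5 genes of the same enzymatic route passed the test in either direction. Of all tested genes, 1.79% passed it as lower and 1.37% as higher. The genes are Icmt, Rce1, Zmpste24, Fnta, Fntb and Pggt1b, 6 of the 53746 genes in the deposited count table, and they were picked by symbol because they encode the enzymes of CAAX protein processing. All 6 had enough counts to be among the 16961 genes tested. Icmt was chosen on this same genotype comparison, as one of the most clearly lowered genes. Its difference is therefore given as a description, without a test.

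Proteins that end in a CAAX motif (a cysteine, a pair of mostly aliphatic residues and a last variable residue) include many small GTPases, G protein gamma subunits and nuclear lamins. Farnesyltransferase, made of the products of Fnta and Fntb, or geranylgeranyl transferase I, made of the products of Fnta and Pggt1b, attaches an isoprenoid lipid to the cysteine. Proteases encoded by Rce1 and Zmpste24 then remove the last residues at the endoplasmic reticulum, and the methyltransferase encoded by Icmt methylates the exposed carboxyl group, which helps to hold these proteins at membranes. STING, the product of Sting1, is itself an endoplasmic reticulum protein that signals in innate immunity.

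RNA sequencing of whole cerebellum was available for 6 mice at 2 months of age. Both genotypes carried the Sting1 N153S allele behind a LoxP-Stop-LoxP cassette. The 3 N153SLSL/LSL mice (control) had no Cre, and the 3 N153SLSL/LSLPcp2-cre mice (Pcp2-cre) expressed Cre from the Pcp2 promoter, which is active in Purkinje cells. In either genotype the first 2 mice were male and the third was female. Each mouse was 1 library. The whole cerebellum was sequenced, so the values average over all its cell types, and fewer cells of a type cannot be told apart from less RNA per cell.

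The libraries held 6733178 to 10178218 counts on genes. A count of 3 corresponded to 0.297 to 0.447 CPM (counts scaled to the library size), which covers counting error only. Sting1, the targeted gene, had 23.2, 27.25 and 26.16 CPM in control mice and 44.38, 34.17 and 35.51 CPM in Pcp2-cre mice, a log2 fold change of 0.57, which fell to 0.45, under the fold threshold, without Pcp2-cre 1. Genes were called when the adjusted p of the edgeR quasi-likelihood test was at most 0.05 and the log2 fold change was at least 0.5 in size. With these thresholds, 304 genes (1.79% of those tested) were called lower and 233 (1.37%) higher in Pcp2-cre mice. The median log2 fold change of all tested genes was 0.0045. The choroid plexus genes stood apart, with a summed level of 805.5 and 1246 CPM in controls 1 and 2 but 32.5 CPM in control 3 and 24.23 to 86.55 CPM in Pcp2-cre mice. In control 3, whose choroid plexus level was within the range of the Pcp2-cre mice, Icmt had 535.4 CPM, against 246.7 to 293.8 CPM in Pcp2-cre mice. Without control 3, which leaves only the controls with high choroid plexus levels, the log2 fold change of Icmt was -1.11. The part of choroid plexus RNA in the levels of Icmt and the other enzyme genes was not tested.

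Icmt, which catalyzes the last step, had 4718, 3868 and 5404 counts in controls, against 2231, 2137 and 1815 in Pcp2-cre mice. Scaled to library size, this was 588.6, 575.9 and 535.4 CPM in controls and 293.8, 246.7 and 268.5 CPM in Pcp2-cre mice. The highest Pcp2-cre mouse was well below the lowest control mouse, and the spread within each genotype was small beside the gap. The mean level was 566.6 ± 27.77 CPM in controls and 269.7 ± 23.6 CPM in Pcp2-cre mice (SD, n = 3 each). The fitted log2 fold change was -1.07 (SE 0.0527). Across 15 other ways of fitting the data it ranged from -1.16 to -1.01. Leaving out each mouse in turn gave -1.14 to -1.01.

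By its p-value, which chose it, Icmt ranked 10 among all tested genes and 3 among the genes called lower. The gene called lower just before it was Cacna1g, a T-type calcium channel subunit, with a log2 fold change of -0.83. The gene just after it was Shisa6, an AMPA receptor auxiliary subunit, with -0.99. A total of 80 genes called lower had a log2 fold change below that of Icmt.

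FPKM, which divides by transcript length and allows levels to be compared between genes, showed the same difference for Icmt. Icmt had 112.2, 112.4 and 100.3 FPKM in controls and 54.63, 45.83 and 45.08 FPKM in Pcp2-cre mice. The means were 108.3 ± 6.92 and 48.51 ± 5.31 FPKM, without overlap between the genotypes. On the log2(FPKM + 1) scale the difference was -1.15 (SE 0.0791).

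Icmt was the most highly expressed of the 6 genes in both genotypes on the FPKM scale. In controls it was followed by Fnta (33.73 ± 0.742 FPKM), Fntb (13.97 ± 0.656), Rce1 (13.2 ± 1.74), Zmpste24 (10.26 ± 0.33) and Pggt1b (5.858 ± 0.497). The order was the same in Pcp2-cre mice. In both genotypes the mouse values of Fntb and Rce1 overlapped, so these neighbors in the order could not be separated, and every other pair of neighbors was without overlap. The control level of Icmt was 3.21 times that of Fnta, and in Pcp2-cre mice this ratio of means was 1.53. Icmt made up 58.4% of the summed FPKM of the 6 genes in controls and 39.4% in Pcp2-cre mice. The sum itself was 185 ± 8.34 FPKM in controls and 123 ± 8.55 FPKM in Pcp2-cre mice. These ratios and sums carry the difference that chose Icmt and were not tested.

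**Figure D1:**
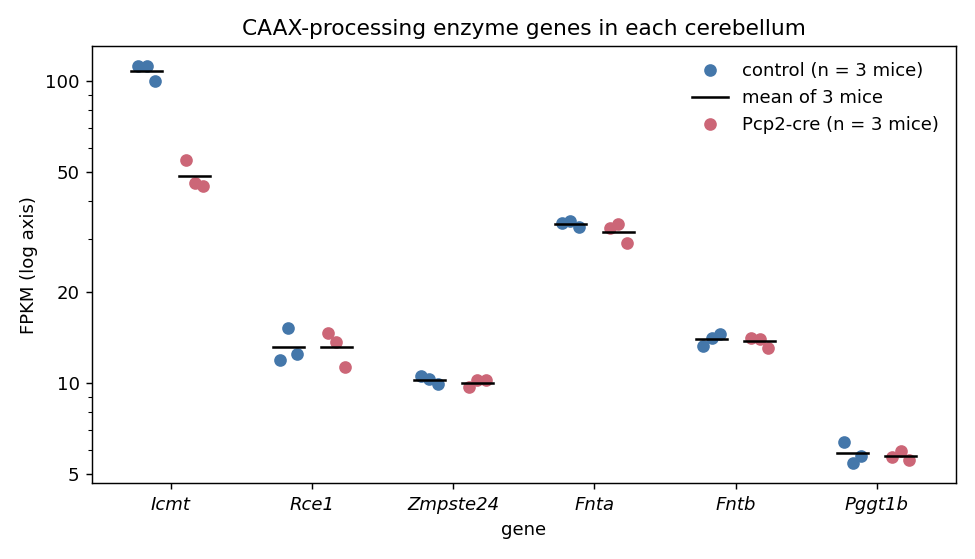
FPKM of the 6 CAAX-processing enzyme genes (horizontal axis) in each mouse, on a log axis, with control mice in blue, Pcp2-cre mice in red and the mean of 3 mice as a line. Icmt lies between 100.3 and 112.4 FPKM in controls and between 45.08 and 54.63 FPKM in Pcp2-cre mice, whereas the points of the other 5 genes overlap between the genotypes.

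The 5 other enzyme genes were not chosen for a difference, and their tests are given with p-values adjusted over all tested genes. None was called by edgeR, by DESeq2 or by limma on FPKM, and 0 of the 5 had an unadjusted p under 0.05 in the edgeR fit. Of all 6 genes, 1 was called lower, and that was Icmt, the gene chosen by this comparison. Over all tested genes 1.79% were called lower and 1.37% higher, so no call among 5 genes is the usual outcome.

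Fnta, the alpha subunit that farnesyltransferase and geranylgeranyl transferase I share, had 71.73, 70.58 and 69.95 CPM in controls and 68.62, 66.14 and 62.43 CPM in Pcp2-cre mice. All Pcp2-cre mice were below all controls, but the gap was small. This pattern was found in 11.4% of all tested genes, and the reverse pattern, with all Pcp2-cre mice above, in 10.8%. The log2 fold change was -0.10 (SE 0.0534, 95% interval -0.21 to 0.01, adjusted p = 0.324 by edgeR). In FPKM the genotypes overlapped, with 33.9, 34.38 and 32.92 in controls and 32.68, 33.53 and 29.03 in Pcp2-cre mice. Fnta and Icmt were the 2 enzyme genes whose CPM values did not overlap.

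Fntb, the beta subunit that makes farnesyltransferase, had 40.17, 43.03 and 43.2 CPM in controls and 42.41, 42.59 and 41.28 CPM in Pcp2-cre mice. The Pcp2-cre mice lay within the range of the controls. The log2 fold change was -0.0009 (SE 0.0676, 95% interval -0.14 to 0.14, adjusted p = 0.998 by edgeR), and its sign turned in 4 of the 15 other fits. Pggt1b, the beta subunit that makes geranylgeranyl transferase I, had 47.16, 46.31 and 50.93 CPM in controls and 48.07, 48.02 and 47.64 CPM in Pcp2-cre mice. Its log2 fold change was -0.01 (SE 0.0647, 95% interval -0.15 to 0.12, adjusted p = 0.959 by edgeR), with a sign that turned without control 3. For each beta subunit the interval spans about 10% on either side of the control level, with bounds of 90.64% and 110.2% for Fntb and 90.33% and 108.9% for Pggt1b.

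The balance between the subunits was compared directly, because it does not involve Icmt. The ratio of Fnta to the sum of Fntb and Pggt1b in FPKM was 1.73, 1.76 and 1.62 in controls and 1.65, 1.68 and 1.55 in Pcp2-cre mice. The means were 1.70 ± 0.0737 and 1.63 ± 0.0681 (exact two-sided permutation p = 0.3, adjusted p = 0.6 over 2 ratios, SD, n = 3 each). The ratio of Fntb to Pggt1b was 2.40 ± 0.291 in controls and 2.39 ± 0.0666 in Pcp2-cre mice (exact two-sided permutation p = 1.0). With 3 mice against 3 this test cannot give a p below 0.1.

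Rce1, the endoplasmic reticulum protease that cleaves most prenylated CAAX proteins, had the lowest counts of the 6 genes. It had 17.71, 18.76 and 18.63 CPM in controls and 20.94, 20.08 and 18.05 CPM in Pcp2-cre mice. Pcp2-cre mice 1 and 2 were above the controls and mouse 3 was within them. The log2 fold change was 0.10 (SE 0.0959, 95% interval -0.10 to 0.30, adjusted p = 0.65 by edgeR). In FPKM the means were 13.2 ± 1.74 and 13.21 ± 1.71. The interval allows levels from 93.58% to 123.5% of control, which is wider than for the transferase subunits.

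Zmpste24, the zinc metalloprotease that matures prelamin A, had 41.67, 41.69 and 42.41 CPM in controls and 36.88, 38.32 and 44.98 CPM in Pcp2-cre mice. The Pcp2-cre mice lay on both sides of the controls. The log2 fold change was -0.07 (SE 0.0766, 95% interval -0.23 to 0.09, adjusted p = 0.705 by edgeR).

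In the GRCm39 build with Gencode M39, Icmt lies on chromosome 4 from 152381628 to 152391585 on the forward strand, with 7 exon blocks that cover 6263 bases. Its exons share 1371 bases (152390215 to 152391585, 21.9% of its exon bases) with the exons of Rnf207, a RING finger gene on the reverse strand. The shared stretch lies after the last coding base of Icmt and holds no coding base of Rnf207. The 3′ ends of the genes thus overlap tail to tail. A further 2012 bases (152387744 to 152389755, 32.1%) are shared with Gm70210, a long noncoding RNA gene on the reverse strand. Gm70210 was not found under this symbol in the count table, so it has no counts to set beside those of Icmt. Altogether 54.0% of the exon bases of Icmt also belong to another annotated gene. The use of strand in counting is not given in the sources used here, and without strand the reads of a gene and its antisense partner cannot be told apart in the shared stretch.

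Rnf207 had far fewer counts than Icmt, with 55, 53 and 95 in controls and 37, 42 and 40 in Pcp2-cre mice. In CPM these were 6.861, 7.892 and 9.412 in controls and 4.873, 4.848 and 5.918 in Pcp2-cre mice. All Pcp2-cre mice were below all controls. Rnf207 was called lower, with a log2 fold change of -0.65 (SE 0.176, adjusted p = 0.0242 by edgeR). The call did not hold in DESeq2 (adjusted p = 0.148), nor in edgeR without control 3 (adjusted p = 0.142), without Pcp2-cre 1 (adjusted p = 0.104) or without Pcp2-cre 2 (adjusted p = 0.140). The counts of Rnf207 amounted to 1.17, 1.37 and 1.76% of those of Icmt in controls and 1.66, 1.97 and 2.2% in Pcp2-cre mice.

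The deposited FPKM values of Rnf207 did not follow its counts. They were 0.3656, 0.416 and 0.4922 in controls and 0.2238, 0.7197 and 0.7878 in Pcp2-cre mice, so that Pcp2-cre 2 and 3 were the highest of all mice and Pcp2-cre 1 the lowest. The CPM of Rnf207 per unit of FPKM was 18.8 to 19.1 in controls and 21.8 in Pcp2-cre 1, but 6.74 and 7.51 in Pcp2-cre 2 and 3. For Icmt this quotient was 5.12 to 5.34 in controls and 5.38, 5.38 and 5.96 in Pcp2-cre mice, so both tables gave a like difference for Icmt and opposite directions for Rnf207. The cause of the disagreement was not tested.

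**Figure D2:**
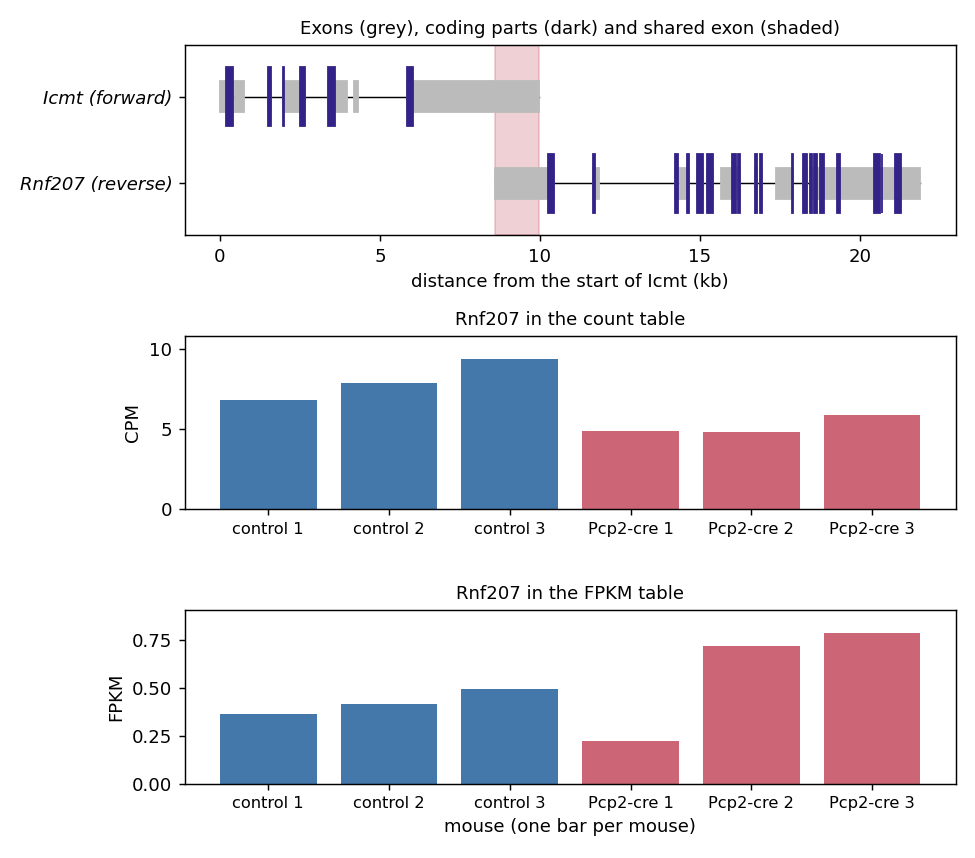
Upper panel, exons (grey) and coding parts (dark) of Icmt and Rnf207 by distance from the start of Icmt in kb, with the 1371 bases of shared exon shaded. Lower panels, Rnf207 in each mouse as CPM and as FPKM, 1 bar a mouse, with Pcp2-cre mice below the controls in CPM but Pcp2-cre 2 and 3 above them in FPKM.

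The exons of Rce1 on chromosome 19 (4671795 to 4675699, reverse strand) share 58 bases with the microRNA gene Mir6986 on the same strand, which had 0 counts in every mouse. They share 395 bases, 11.1% of the exon bases of Rce1, with Pcx on the other strand. Pcx, which encodes pyruvate carboxylase, had 920, 732 and 1106 counts in controls and 710, 818 and 661 in Pcp2-cre mice. Its log2 fold change was -0.22 (SE 0.0439, adjusted p = 0.00163 by edgeR), under the fold threshold, and opposite in sign to that of Rce1. Fntb on chromosome 12 (76812250 to 76968186, forward strand) shares 370 bases with Churc1 on the same strand, 246 of them coding. Churc1 had a log2 fold change of 0.13 (adjusted p = 0.80 by edgeR). A further 250 bases of Fntb, 129 of them coding in Fntb, are shared with Gm59872, a long noncoding RNA gene on the reverse strand. Gm59872 was not found under this symbol in the count table. Altogether 15.1% of the exon bases of Fntb are shared. Zmpste24 on chromosome 4 (120916433 to 120955459, reverse strand) shares 125 bases with a small nucleolar RNA gene. Fnta on chromosome 8 (26484643 to 26505678, reverse strand) and Pggt1b on chromosome 18 (46349957 to 46414060, reverse strand) share no exon bases with other genes.

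Within 200 kb on either side of Icmt, 23 other genes are annotated and 11 were tested. Of these, 3 were called lower, or 27.3%, against 1.79% of all tested genes; 1 of the 3 is Rnf207, which shares exon with Icmt. Espn, which encodes an actin-bundling protein, had 55, 47 and 77 counts in controls and 33, 33 and 23 in Pcp2-cre mice, a log2 fold change of -0.89 (SE 0.182, adjusted p = 0.00227 by edgeR). Hes3, a transcriptional repressor of the Hes family that starts 5492 bases before Icmt on the other strand, had 426, 360 and 480 counts in controls and 288, 275 and 239 in Pcp2-cre mice. Its log2 fold change was -0.55 (SE 0.0778, adjusted p = 4.08e-05 by edgeR), and -0.48, under the fold threshold, without Pcp2-cre 2. Kcnab2, a potassium channel beta subunit, was at -0.29 (adjusted p = 6.68e-04 by edgeR), also under the fold threshold. The 7 other tested neighbors had adjusted p-values over 0.05. They ranged from -0.28 for Gpr153 to 0.36 for Tnfrsf25 and included the nearest tested gene on the downstream side after Rnf207, Rpl22, at 0.04.

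**Figure D3:**
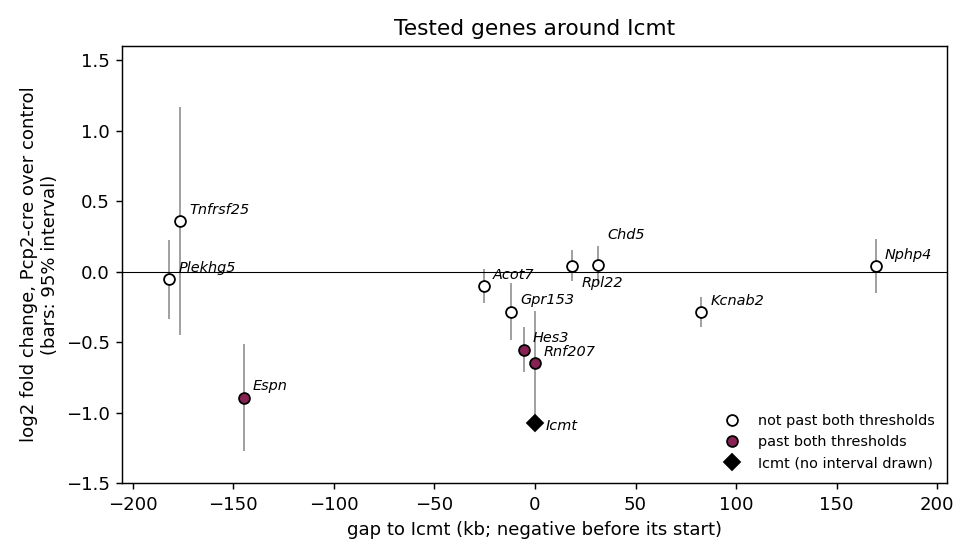
Log2 fold change (Pcp2-cre over control) of the 11 tested genes within 200 kb of Icmt against their gap to Icmt in kb, with bars for the 95% interval and filled circles for genes past both thresholds. Espn, Hes3 and Rnf207 lie between -0.89 and -0.55, and Icmt is drawn at -1.07 without an interval.

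The level of Icmt in each mouse was set beside 9 genes that mark Purkinje cells, the cells in which Cre was expressed (Calb1, Pcp2, Pcp4, Car8, Ppp1r17, Slc1a6, Itpr1, Itpka and Rgs8). Of these 9 genes 7 were called lower, against 1.79% of all tested genes. All 9 were lower by the adjusted p alone, against 4.75% of all tested genes. The log2 fold changes of the 9 genes ran from -0.98 to -0.40, with a median of -0.76. Their summed level was 7219 to 7935 CPM in controls and 3997 to 4442 CPM in Pcp2-cre mice. None of the 9 had a log2 fold change below that of Icmt. On the log2 scale relative to the control mean, Icmt was at -0.946, -1.2 and -1.08 in Pcp2-cre mice 1 to 3, and the mean of the Purkinje cell genes was at -0.609, -0.817 and -0.727. The difference between Icmt and the mean of these genes was -0.355 ± 0.0229 in Pcp2-cre mice (SD, n = 3), with an SD of 0.0373 among controls. Icmt was chosen as one of the most clearly lowered genes, so a level below these markers follows in part from that choice. The difference is therefore a description and was not tested. The 3 Pcp2-cre mice came in the same order for both, but 3 mice are too few to judge this. How much of the difference in Icmt moves with Purkinje cell RNA was not tested.

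Of 7 microglial genes, 5 were called higher, against 1.37% of all tested genes. The list had a median log2 fold change of 1.33, and its summed level was 103.8 to 107.3 CPM in controls and 244.8 to 266.6 CPM in Pcp2-cre mice. Gfap and Aqp4, of 7 astrocyte and Bergmann glia genes, were called higher, and Aqp4 came under the fold threshold without control 2 (0.49), control 3 (0.47) or Pcp2-cre 2 (0.46). Of the same list, Slc1a3 at -0.22 (adjusted p = 9.95e-05 by edgeR) and Gdf10 at -0.25 (adjusted p = 0.00424 by edgeR) were lower by the adjusted p but under the fold threshold, and the list median was 0.08. No granule cell, oligodendrocyte or endothelial gene was called, with median log2 fold changes of 0.05 over 7, 0.22 over 6 and 0.12 over 4 genes. Their part in the levels of the enzyme genes was not tested.

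The genes whose levels over the 6 mice lay nearest to those of Icmt, among 11381 genes with at least 10 CPM on average, were Nell1, Shisa6, Stk17b, Cep76, Nrk and Cmya5. Nearness was the Euclidean distance between log2 CPM values relative to the control mean. Nell1, which encodes a secreted glycoprotein, had a distance of 0.130 (Pearson r = 0.996 over 6 mice). It had 45.28, 40.5 and 42.01 CPM in controls and 22.13, 17.78 and 19.83 CPM in Pcp2-cre mice. Shisa6 (distance 0.143) had 227.8, 223.9 and 214.7 CPM in controls and 121.7, 103.0 and 110.2 CPM in Pcp2-cre mice. The distances of the kinase gene Stk17b, the centrosomal gene Cep76, the kinase gene Nrk and Cmya5 were 0.166, 0.17, 0.212 and 0.214. For each of the 6 genes all Pcp2-cre mice were below all controls, and the log2 fold changes ran from -1.13 to -0.99. They were chosen for this likeness, and the correlations are descriptions that reflect mainly the gap between the genotypes.

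**Figure D4:**
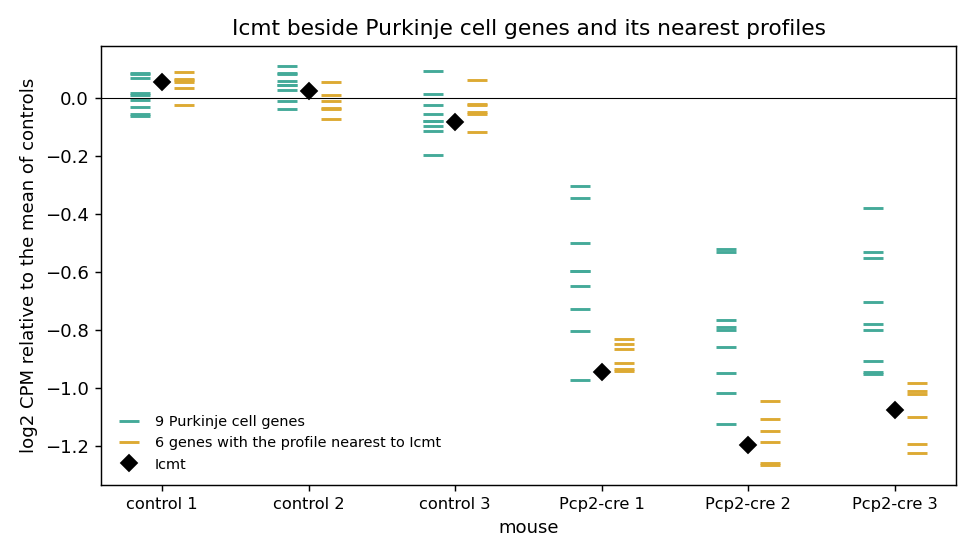
Log2 CPM relative to the mean of controls in each mouse for Icmt (diamonds), the 9 Purkinje cell genes (green dashes) and the 6 genes with the nearest profiles (yellow dashes). In Pcp2-cre mice Icmt is at -0.946, -1.2 and -1.08, near or below the lowest Purkinje cell gene and among its nearest profiles.

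The wider pathway was described by 7 lists with 91 genes, of which 82 were tested and 9 were under the filter on low counts. None of the 82 was called lower by edgeR. At an unadjusted p under 0.05 in that fit, 12 had a negative and 16 a positive log2 fold change. DESeq2 called 0 lower and limma on log2(FPKM + 1) called 2 lower. The 2 genes called higher by edgeR, 2.44% against 1.37% of all tested genes, were Gng4 and Cenpe. By the adjusted p alone, whatever the fold change, 4 genes were lower (4.88%, against 4.75% of all genes) and 8 were higher (9.76%, against 2.99%). The median log2 fold change of the 82 genes was 0.04, and 49 were above 0, against 8704 of all 16961 tested genes.

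Upstream of the enzymes, the mevalonate pathway provides the isoprenoid lipids. Its list also holds the squalene synthase gene Fdft1, which does not make a lipid used by the enzymes. Of the 9 tested genes, 8 had a negative log2 fold change, with a median of -0.16 and a range of -0.25 to 0.01. Among all 16961 tested genes, 8704 were above 0. Hmgcs1, the synthase that makes HMG-CoA, had 130.2, 134.3 and 125.2 CPM in controls and 113.0, 111.7 and 111.3 CPM in Pcp2-cre mice, with no overlap. Its log2 fold change was -0.21 (SE 0.0415, adjusted p = 0.00171 by edgeR), under the fold threshold. The isomerase gene Idi1 was at -0.21 (adjusted p = 0.102) and the squalene synthase gene Fdft1 at -0.19 (adjusted p = 0.123), both by edgeR.

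Fdps, the farnesyl diphosphate synthase that makes the lipid used by farnesyltransferase, was under the filter, with 3, 5 and 10 counts in controls and 7, 6 and 3 in Pcp2-cre mice. Its FPKM values were 18.43, 16.43 and 17.82 in controls and 15.09, 16.1 and 14.86 in Pcp2-cre mice, above those of Fntb, so the tables give very different levels for this gene. On the log2(FPKM + 1) scale its difference was -0.18 (SE 0.0619, adjusted p = 0.188 by limma).

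Of 5 genes for other prenyltransferases or Rab escort proteins, Ptar1 had a log2 fold change of -0.22 (SE 0.0437, adjusted p = 0.00195 by edgeR), under the fold threshold. Its levels were 161.9, 163.3 and 152.0 CPM in controls and 135.7, 141.3 and 132.0 CPM in Pcp2-cre mice. The Rab escort protein gene Chml was at -0.28 (adjusted p = 0.163) and Rabggtb, the catalytic subunit of the Rab transferase, at 0.11 (adjusted p = 0.472), both by edgeR. The median of the list was -0.08.

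The methyl donor list holds genes that make S-adenosylmethionine, the substrate that Icmt uses, and Ahcy, which clears the product of methylation. It also holds Ahcyl1 and Ahcyl2, which are related to Ahcy by sequence. None of the 5 tested genes passed the adjusted p by edgeR, and the median log2 fold change was -0.07. Ahcy, the hydrolase that removes S-adenosylhomocysteine, a product inhibitor of methyltransferases, had the smallest p. It had 19.96, 18.76 and 20.21 CPM in controls and 16.33, 16.04 and 16.13 CPM in Pcp2-cre mice, a log2 fold change of -0.29 (adjusted p = 0.0768 by edgeR). Ahcyl2 was at -0.13 (adjusted p = 0.125) and Ahcyl1 at -0.07 (adjusted p = 0.329).

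None of the 9 genes for handling and turnover of prenylated proteins passed the adjusted p by edgeR, and their median was 0.06. The GDP dissociation inhibitor genes Arhgdia and Arhgdib were at 0.14 (adjusted p = 0.0578) and 0.61 (adjusted p = 0.0905). On the log2(FPKM + 1) scale Arhgdib was called higher (0.66, adjusted p = 0.0108 by limma), but it was not called in 13 of the 15 alternatives. Pde6d, which carries farnesylated proteins between membranes, was at -0.16 (adjusted p = 0.280).

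Among the substrates, 32 small GTPase genes were tested and none was called. Of these, 25 had a positive log2 fold change, against 8704 of all 16961 tested genes, with a median of 0.06. By the adjusted p alone, 3 of the 32 were higher, against 2.99% of all tested genes. Rnd2, a small GTPase of neurons, had 56.89, 60.16 and 63.71 CPM in controls and 74.41, 74.8 and 69.09 CPM in Pcp2-cre mice, a log2 fold change of 0.27 (SE 0.0578, adjusted p = 0.00358 by edgeR). Rhoq was at 0.22 (adjusted p = 0.0325) and Diras1 at 0.15 (adjusted p = 0.0347), both by edgeR. Some well known members, picked after their values were seen, were not called, with log2 fold changes of 0.09 for Hras, 0.11 for Nras, 0.04 for Rhoa and 0.0018 for Rac1.

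The G protein gamma subunit genes, of which 9 were tested, had a median log2 fold change of 0.11. Of the 9, 8 were above 0, against 8704 of all 16961 tested genes. Gng13 had 455, 406 and 615 counts in controls and 340, 329 and 306 in Pcp2-cre mice, and in CPM the genotypes did not overlap. Its log2 fold change was -0.48 (SE 0.0711, adjusted p = 7.11e-05 by edgeR), just under the fold threshold. It was past it on the log2(FPKM + 1) scale (-0.59, adjusted p = 0.0126 by limma), and in edgeR without control 1, Pcp2-cre 1 or Pcp2-cre 3 (-0.53 to -0.52). Of its 1023 exon bases, 448 are shared with other annotated genes. Gng4 was called higher, with 47, 31 and 57 counts in controls and 50, 88 and 58 in Pcp2-cre mice, at a log2 fold change of 0.65 (SE 0.182, adjusted p = 0.0312 by edgeR). The call was lost without control 1 (adjusted p = 0.0611), control 2 (adjusted p = 0.108), Pcp2-cre 2 (adjusted p = 0.260) or Pcp2-cre 3 (adjusted p = 0.103). Gng7 was at 0.40 (adjusted p = 0.00929) and Gng12, named after its value was seen, at 0.24 (adjusted p = 0.0329), both by edgeR and under the fold threshold.

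Of 13 tested lamin and other farnesylated protein genes, Inpp5a, the phosphatase that ends the signal of inositol trisphosphate, had 3336, 2858 and 4135 counts in controls and 2507, 2442 and 1944 in Pcp2-cre mice. Its log2 fold change was -0.48 (SE 0.0497, adjusted p = 7.24e-07 by edgeR), just under the fold threshold, and -0.55 without Pcp2-cre 1. On the log2(FPKM + 1) scale it was -0.54 (adjusted p = 0.0025 by limma). Cenpe, a mitotic kinesin, was called higher from 7, 3 and 12 counts in controls and 14, 30 and 10 in Pcp2-cre mice, with a log2 fold change of 1.39 (SE 0.391, adjusted p = 0.0310 by edgeR). This call was lost without control 1 (adjusted p = 0.11), control 2 (adjusted p = 0.116), Pcp2-cre 1 (adjusted p = 0.0516) or Pcp2-cre 2 (adjusted p = 0.357). Cnp, a myelin protein gene, was at 0.15 (adjusted p = 0.0354 by edgeR). The lamin genes Lmna, Lmnb1 and Lmnb2 were at 0.05, 0.01 and -0.00015 and were not called.

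**Figure D5:**
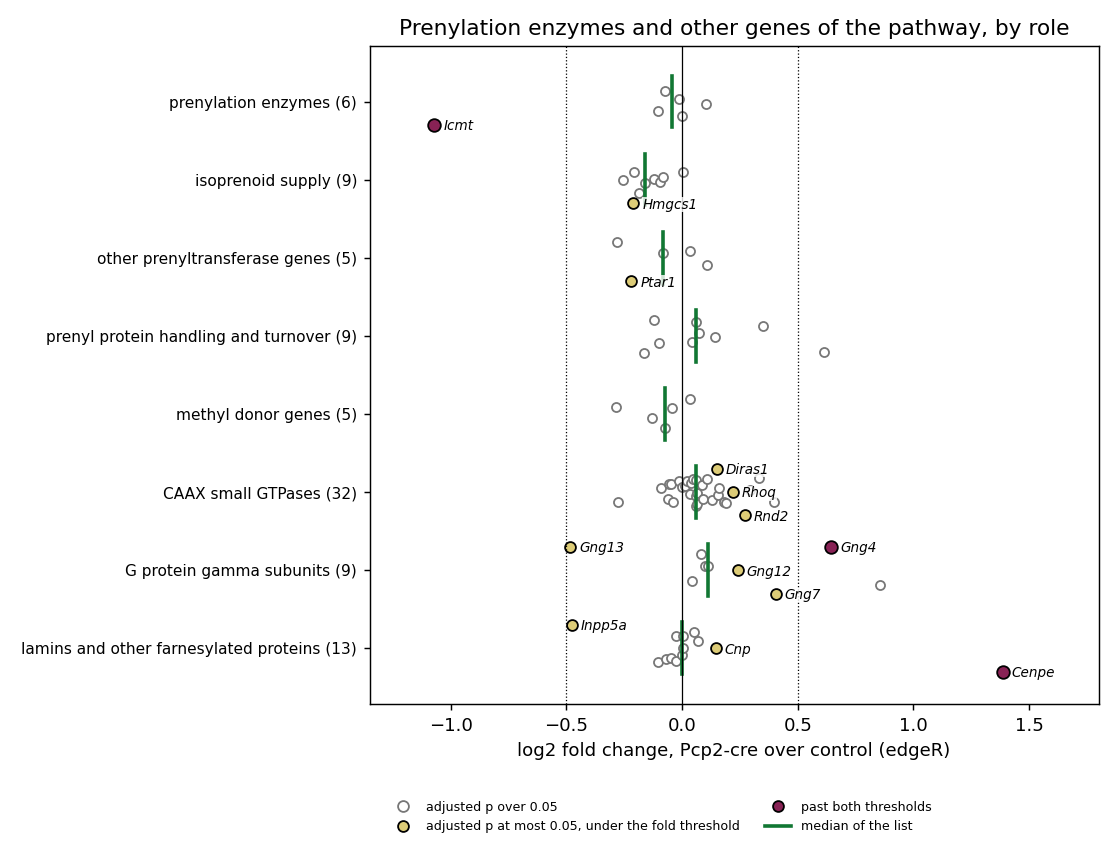
Log2 fold change (Pcp2-cre over control, edgeR) of the 6 enzyme genes and the 82 tested genes of 7 pathway lists, 1 row a list with the number of tested genes in brackets. Dark points are past both thresholds (Icmt, Gng4 and Cenpe), yellow points passed the adjusted p but not the fold threshold, green lines are list medians and dotted lines mark the fold threshold of 0.5.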

How the data were processed

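RNA was measured in whole cerebellum of 6 mice, 3 control and 3 Pcp2-cre, grouped by the genotype in the labels. The authors aligned trimmed paired reads from poly A-selected libraries to GRCm39 with STAR and deposited raw counts per gene (featureCounts) and FPKM (taken to be from StringTie), on the Gencode annotation. Versions of tools and annotation, strandedness and the handling of reads on several genes are not given in the sources used here.

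The counts of 16961 genes kept by filterByExpr were fitted with edgeR 4.0.16 (TMM, quasi-likelihood test, Benjamini-Hochberg adjustment; R 4.3.3). Genes were called at an adjusted p up to 0.05 if the log2 fold change reached 0.5 in size. CPM used TMM library sizes, and distances between profiles used log2 CPM with a prior count of 2. FPKM was tested with limma 3.58.1 on log2(FPKM + 1) after a filter of 0.5 FPKM in 3 mice, and DESeq2 1.42.0 was an alternative. The edgeR fit was tested on simulated counts. Gene positions came from Gencode M39 on GRCm39, which holds 53141 of the 53746 genes in the count table. Replicates were separate mice. Those of a genotype differed by more than counting noise (chi-square of 1.38 to 3.62 per gene).

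Named genes were the 6 enzyme genes, genes sharing their exons, tested neighbors within 200 kb, the 6 nearest profiles, and in each list the called genes and, where fewer than 3 were called, the 3 smallest p-values. The members and lists were chosen with earlier results of these data known. A list of proteins with a CAAX end, planned from protein sequences, was not analysed here. Of the planned lists, 1 Purkinje cell gene and 1 small GTPase gene are not reported here and were left out of the counts.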

Additional observations from a re-analysis of the deposited data

How the results depend on the processing

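None of the 5 enzyme genes other than Icmt was called in any of the 15 alternatives; the values of Icmt, chosen on this comparison, are given as a description. Genes called higher numbered 150 with DESeq2 and 105 with limma on log2(FPKM + 1) without a filter (233 in edgeR), and genes called lower 191 and 116 with limma on log2(FPKM + 1) with and without the filter (304 in edgeR). Pathway list genes called lower numbered 2 with limma at either pseudocount, and 0 to 2 with each mouse left out (0 in edgeR). Those called higher numbered 0 with DESeq2 and with unfiltered limma, 1 with at least 10 counts in every mouse, and 0 to 2 with each mouse left out (2 in edgeR). Rnf207 turned to 0.13 with limma on log2(FPKM + 1) without a filter, and the cause was not tested. Of 1326 results of the 89 named genes other than Icmt under an alternative, 1265 stayed on their side of the thresholds, 47 lost the call, 13 gained it and 1, that of Rnf207, turned. Among genes that were not called, the sign turned in 25 results of 9 genes.

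With mouse number as a replicate block, 229 genes were called higher and 319 lower, the log2 fold change of Icmt was -1.07, and 1 pathway list gene was called higher. Same-numbered mice deviated together only weakly (r = 0.0408, 0.0565 and 0.166), and control 1 correlated best with Pcp2-cre 2 (0.073), which did not meet the condition for pairing; same-numbered mice are also of the same sex, and with sex as a covariate the log2 fold change of Icmt was -1.07. No scaling moved the median of all genes by more than 0.0215. Low counts limit Rce1, Rnf207, Gng4 and Cenpe, and exons shared with other genes limit Icmt. The list of CAAX-end proteins was not run.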
